A study of Mus musculus with 4 samples.

Results

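The SLC25 family of membrane carriers was measured by RNA-seq in 4 stable lines of 3T3-L1 cells on day 8 of adipogenesis. 3T3-L1 cells are mouse preadipocytes that fill with lipid under adipogenic hormones. The members were all genes with a symbol made of Slc25a and a number, which gave 38 of the 13085 genes in the files. FLAG cells carried the empty FLAG vector and FLAG-CACUL1 cells overexpressed CACUL1 from that vector, and both were selected with G418. The sh-Luc cells carried a hairpin against luciferase and the sh-CACUL1 cells a hairpin against CACUL1, and both were selected with Hygromycin B. All 4 lines were grown from drug-resistant colonies of transfected 3T3-L1 cells, and how many colonies made up each line is not given in the sources used here. All 4 received rosiglitazone at 5 µM, IBMX at 0.5 mM, dexamethasone at 1 µg/mL and insulin at 5 μg/mL. Each line was 1 sample, so no difference between lines has a replicate check and none was tested. FLAG-CACUL1 was compared with FLAG, and sh-CACUL1 with sh-Luc, to ask how the carriers differed when CACUL1 was raised or depleted.

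SLC25 carriers are nuclear-encoded proteins, and most of them sit in the inner mitochondrial membrane, which is otherwise closed to most metabolites. Each carrier passes a small set of substrates, often by exchanging a substrate in the matrix for another outside, and so links mitochondrial and cytosolic pathways. In adipocytes the best known is the export of citrate, which supplies acetyl units for fatty acid synthesis in the cytosol, together with the exchange of dicarboxylates, carnitine esters and adenine nucleotides.

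Levels are FPKM, that is fragments per kilobase of transcript and relative to the total fragments. Differences between samples are log2 ratios of FPKM + 1, a scale that understates the change of low genes, and a gene was counted as at least 2-fold higher or lower at a log2 change of 1 or more in size. The steps in the low values of long transcripts gave an estimated depth of 14460000 fragments for FLAG, 14270000 for FLAG-CACUL1, 24030000 for sh-Luc and 14990000 for sh-CACUL1. Intervals are 95% exact (Clopper-Pearson) intervals of a ratio of FPKM from these estimated fragments, and they cover counting error only, not the difference between cultures. The targeted gene, Cacul1, was at 9.61 FPKM in FLAG against 11.8 in FLAG-CACUL1 and 10.2 in sh-Luc against 5.39 in sh-CACUL1. It was thus lower with the hairpin, while its mRNA with the FLAG-CACUL1 vector was only slightly above the control. Whether this row counts transcripts of the construct is not given in the sources used here. The study monitored FLAG-CACUL1 protein in its stable 3T3-L1 cells by western blot. Markers of other cell states differed between the lines beside every result. The 7 of 8 listed adipocyte markers with a row all lay at least 2-fold below FLAG in FLAG-CACUL1 and above sh-Luc in sh-CACUL1, with summed levels of 8392 FPKM in FLAG, 880 with FLAG-CACUL1, 1687 in sh-Luc and 17514 with sh-CACUL1. The 6 of 7 preadipocyte and fibroblast markers summed to 4756, 6646, 3121 and 608 FPKM in the same order, a sum carried by Col1a1 and Col3a1. Among them Dlk1 and Thy1 were higher in sh-CACUL1 than sh-Luc (log2 changes 4.19 and 4.41), and Dlk1 was lower in FLAG-CACUL1 than FLAG (−1.28). The 3 of 5 macrophage markers summed to 24.9, 68.3, 6.11 and 2.91 FPKM, where Lyz2 was higher (8.12 to 66.5 FPKM) and Cd68 lower (16.2 to 1.44 FPKM) in FLAG-CACUL1 than FLAG, and the single endothelial marker of 3 with a row stayed at or under 0.301 FPKM. The 3 listed markers of brown adipocytes had no row. The part of these cell states in the results was not tested, and in bulk RNA fewer cells of a type and less RNA per cell cannot be told apart.

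The promoters of the 3 members that were lower in FLAG-CACUL1 and higher in sh-CACUL1 are shown because these genes moved together at 2-fold. Slc25a1 lies at chr16:17925223-17928219 on the minus strand, Slc25a10 at chr11:120491840-120499187 on the plus strand and Slc25a33 at chr4:149744036-149774277 on the minus strand (GENCODE M21, GRCm38). Each sequence runs 5′ to 3′ from 250 bases before to 50 bases after a RefSeq transcription start on GRCm38.p6, namely chr16:17928170-17928469, chr11:120491587-120491886 and chr4:149774218-149774517. Capitals mark the E-box CACGTG.
Slc25a1: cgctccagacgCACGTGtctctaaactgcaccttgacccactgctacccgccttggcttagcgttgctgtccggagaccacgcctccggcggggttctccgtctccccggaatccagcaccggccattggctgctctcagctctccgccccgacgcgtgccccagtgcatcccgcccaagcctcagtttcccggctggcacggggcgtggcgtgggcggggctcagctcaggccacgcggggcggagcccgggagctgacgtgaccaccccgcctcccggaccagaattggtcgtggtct
Slc25a10: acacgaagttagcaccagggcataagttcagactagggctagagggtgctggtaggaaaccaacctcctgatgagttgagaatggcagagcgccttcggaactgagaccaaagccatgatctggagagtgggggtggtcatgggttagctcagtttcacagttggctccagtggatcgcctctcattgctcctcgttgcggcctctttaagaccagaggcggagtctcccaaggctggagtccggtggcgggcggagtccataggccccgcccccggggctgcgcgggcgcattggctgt
Slc25a33: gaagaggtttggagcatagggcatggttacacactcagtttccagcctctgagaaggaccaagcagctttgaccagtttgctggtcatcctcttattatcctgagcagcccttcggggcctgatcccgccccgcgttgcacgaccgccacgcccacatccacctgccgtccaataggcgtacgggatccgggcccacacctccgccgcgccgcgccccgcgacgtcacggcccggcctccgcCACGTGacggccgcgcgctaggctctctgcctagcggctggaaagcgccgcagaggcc
The E-box began 239 bases before the start of Slc25a1 and 8 bases before that of Slc25a33, and these letters were not in the window of Slc25a10. RefSeq promoters were matched for 28 of the 38 members, giving 36 windows. CACGTG, which reads the same on both strands, was in 7 of the 36 windows (19.4%), against 9.78% of the 12866 windows of measured genes and 7.15% of all 32851 windows. The 7 windows belonged to 6 genes, Slc25a1, Slc25a13, Slc25a14, Slc25a15, Slc25a33 and Slc25a36. Windows of Slc25a14 overlap, and those with the motif hold the same site, at −54 and −184 from their starts. Only Slc25a1 and Slc25a33 of the 6 genes differed by 2-fold in both comparisons. On either strand, GCGCA and GCGC 1 base apart (the NRF1 motif) was in 1 member window (2.78%) against 9.67% of the windows of measured genes, and CCGGAAGT (the ETS motif) was in 1 against 7.97%. TCAAGGTCA (ERR), a repeat of AGGTCA after 1 base (the DR1 element) and TCACNCCAC (SRE) were in 0 of the 36 windows, against 0.256%, 0.0389% and 1.09% of the windows of measured genes. None of these motifs contains another. A match is only a run of letters, and nothing was measured at these promoters.

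Carriers of adenine nucleotides and phosphate, which serve ATP synthesis, held the largest share of the members' summed FPKM among the 7 role groups. Their sum was 613 FPKM in FLAG against 811 in FLAG-CACUL1 and 936 in sh-Luc against 997 in sh-CACUL1. The 38 members summed to 1368 FPKM in FLAG against 1312 in FLAG-CACUL1 and 1443 in sh-Luc against 1735 in sh-CACUL1, which was 0.290%, 0.277%, 0.347% and 0.466% of all FPKM. Between 73.9% and 76.8% of the total of these 38 came from Slc25a4, Slc25a5, Slc25a3, Slc25a1 and Slc25a39. The median member was at 7.67 to 8.75 FPKM. Family members with other symbols lie outside this total. Among them Mtch1, at 83.4 to 193.4 FPKM, exceeded Slc25a1 and Slc25a39 in FLAG-CACUL1 and sh-Luc. Of the 38 members, 34 had at least 1 FPKM in all 4 samples, and Slc25a2, Slc25a47 and Slc25a53 were under 1 FPKM in all of them. Slc25a27, which encodes the uncoupling-like protein UCP4, ranged from 0.369 to 1.36 FPKM. A further 10 listed carriers (Slc25a18, Slc25a21, Slc25a23, Slc25a31, Slc25a34, Slc25a41, Slc25a43, Slc25a48, Slc25a52 and Slc25a54) had no row under their symbol. All 13110 rows were above 0 FPKM in all 4 samples. The members and the all-gene shares thus cover only genes detected in every sample. The plot of levels shows this range and where the samples of each member lie apart.

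**Figure D1:**
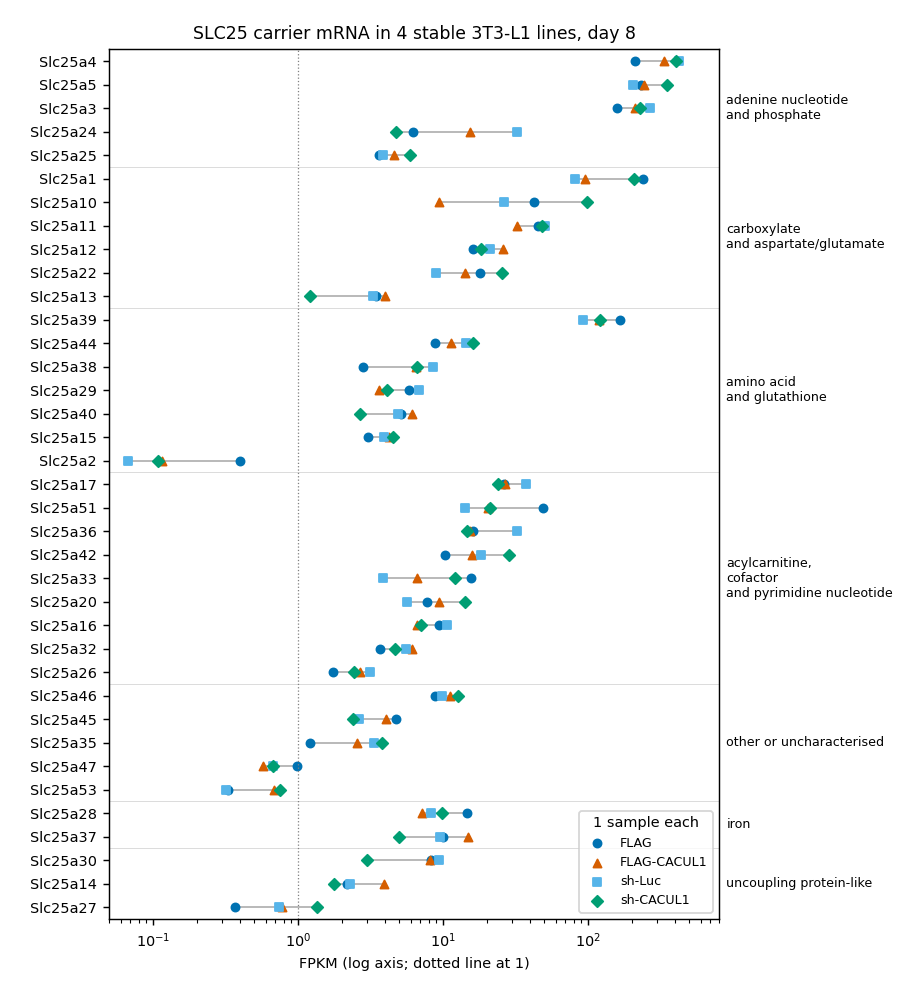
FPKM of 37 of the 38 SLC25 carriers on a log axis, with 1 point for each of the 4 samples, a grey line from the lowest to the highest and members grouped by substrate. Slc25a4, Slc25a5 and Slc25a3 lie above 158 FPKM in every sample, the points of Slc25a10 spread 10.6-fold, and 3 members lie left of the dotted line at 1 FPKM in all samples.

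FLAG-CACUL1 differed from FLAG by at least 2-fold in 5 of the 38 members (13.2%), against 14.7% of all genes, so the share of members was close to the background. Slc25a24 was higher, and Slc25a1, Slc25a10, Slc25a33 and Slc25a51 were lower, against 7.51% of all genes higher and 7.22% lower. The sh-CACUL1 cells differed from sh-Luc in 9 of 38 members (23.7%), against 21.3% of all genes. Here 6 members were higher, among them Slc25a1, Slc25a10, Slc25a20, Slc25a22 and Slc25a33, and 3 were lower (Slc25a24, Slc25a30 and Slc25a36), against 4.94% and 16.4% of all genes. The all-gene split depended on the scaling. It was 647 higher and 2141 lower in the deposited values, 1178 and 1084 after quantile normalization and 1186 and 1016 after median-of-ratios scaling, while the members were split 6 and 3, 7 and 1, and 8 and 2. For FLAG-CACUL1 the all-gene split was 983 higher and 945 lower as deposited and 736 and 1187 after median-of-ratios scaling, with the members at 1 and 4 and at 1 and 5.

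The median log2 change of the members was 0.19 in FLAG-CACUL1, beside 0.09 over all genes, and 0.03 in sh-CACUL1, beside −0.30 over all genes. Of the 38 members, 20 lay above the all-gene median change in FLAG-CACUL1 and 28 (73.7%) in sh-CACUL1. In sh-CACUL1 the members' median was 0.28 after quantile normalization, where the all-gene median was −0.01, and −0.06 when genes under 1 FPKM in all 4 samples were left out, where the all-gene median was −0.41.

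**Figure D2:**
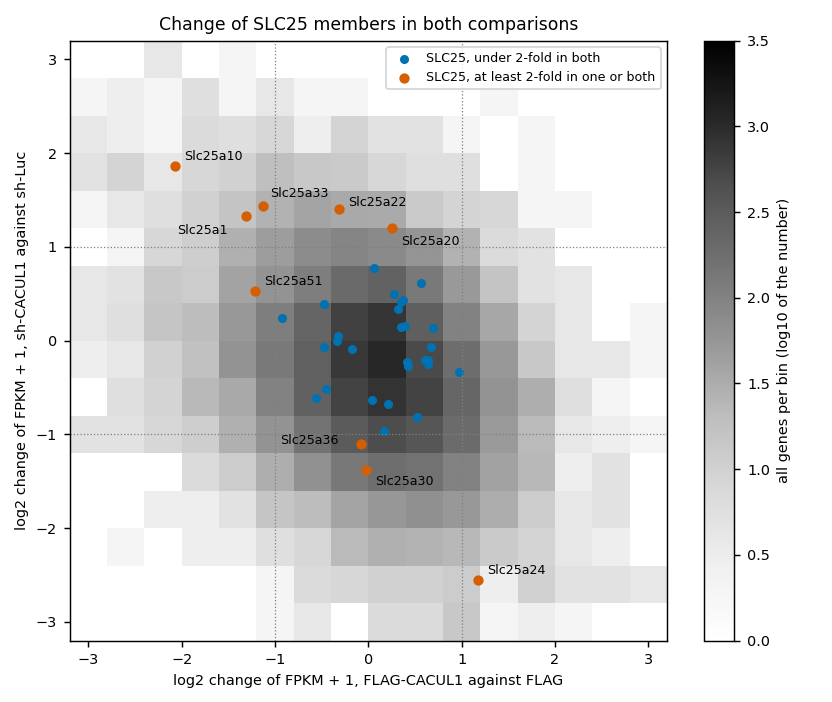
Log2 change of FPKM + 1 for SLC25 carriers, with FLAG-CACUL1 against FLAG on the horizontal axis and sh-CACUL1 against sh-Luc on the vertical axis (1 sample per group, dotted lines at 2-fold). Grey squares count all genes within the plotted range, and 37 of the 38 carriers are drawn. Slc25a1, Slc25a10 and Slc25a33 lie in the upper left beyond both lines, Slc25a24 lies alone in the lower right, and 28 of 38 members lie within the lines on both axes.

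Of the 10 members that differed by 2-fold in either comparison, 4 did so in both, each in opposite directions. Slc25a1, Slc25a10 and Slc25a33 were lower in FLAG-CACUL1 and higher in sh-CACUL1 (7.89% of members, against 1.69% of all genes). Slc25a24 was the only member higher in FLAG-CACUL1 and lower in sh-CACUL1, against 3.02% of all genes. No member differed by 2-fold in the same direction in both, against 1.09% of all genes. With no cut-off, 9 members were lower and then higher, 12 higher and then lower, 10 higher in both and 7 lower in both, against 16.1%, 43.4%, 15.2% and 25.3% of all genes.

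The carriers of carboxylates and of aspartate and glutamate held Slc25a1 and Slc25a10, which were lower in FLAG-CACUL1 and higher in sh-CACUL1. Of these 6 members, 2 lay at least 2-fold below FLAG in FLAG-CACUL1 and 0 above it, and 3 lay above sh-Luc in sh-CACUL1 and 0 below it, beside 7.22% of all genes lower in FLAG-CACUL1 and 4.94% higher in sh-CACUL1. Their summed level was 366 FPKM in FLAG against 182 in FLAG-CACUL1 and 192 in sh-Luc against 399 in sh-CACUL1, a sum that Slc25a1 dominates. The group's median log2 changes were −0.39 (FLAG-CACUL1) and 0.63 (sh-CACUL1).

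Slc25a1 encodes the citrate carrier, which exports citrate from mitochondria in exchange for malate. It was at 240.9 FPKM in FLAG against 96.1 in FLAG-CACUL1 and 81.7 in sh-Luc against 206.3 in sh-CACUL1. It was thus high in FLAG and sh-CACUL1 and low in the other 2 samples, and it was the most abundant member in FLAG but had rank 5 in FLAG-CACUL1, rank 5 in sh-Luc and rank 4 in sh-CACUL1. The level in FLAG-CACUL1 was 0.399 times that in FLAG (interval 0.380 to 0.419, log2 change −1.32). In sh-CACUL1 it was 2.52 times that in sh-Luc (interval 2.42 to 2.64, log2 change 1.33). The controls differed by more than either comparison, with a log2 change of 1.55 in FLAG against sh-Luc.

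Slc25a10 encodes the dicarboxylate carrier, which exchanges malate or succinate for phosphate. It was at 42.5 FPKM in FLAG against 9.36 in FLAG-CACUL1 and 26.5 in sh-Luc against 99.2 in sh-CACUL1. Its lowest level was in FLAG-CACUL1 and its highest in sh-CACUL1, 10.6 times as much, with both controls between them. The ratio was 0.220 (interval 0.192 to 0.251) in FLAG-CACUL1 against FLAG and 3.75 (interval 3.51 to 4.0) in sh-CACUL1 against sh-Luc, or log2 changes of −2.07 and 1.87. Against the other vector's control, Slc25a10 was still 2-fold lower in FLAG-CACUL1 (−1.41) and 2-fold higher in sh-CACUL1 (1.20), which held in both directions for no other member. Its exons overlap those of Gm11788 on the opposite strand over 6.60% of their length, and whether strand was used in counting is not given in the sources used here.

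Slc25a22, a glutamate carrier, was at 18.0 FPKM in FLAG against 14.3 in FLAG-CACUL1 and 8.97 in sh-Luc against 25.4 in sh-CACUL1. Only its difference in sh-CACUL1 passed 2-fold (log2 change 1.40, against −0.31 in FLAG-CACUL1). Against the other vector's control the log2 change of Slc25a22 was under 2-fold in sh-CACUL1 (0.47) and turned direction in FLAG-CACUL1 (0.62). Among the other 3 members of the group, Slc25a13, the aspartate/glutamate carrier citrin, was just short of 2-fold lower in sh-CACUL1 on this scale (−0.97), is named because of this value, and passed 2-fold with a pseudocount of 0.1 or none. Its relative Slc25a12, aralar, was 15.2 times as abundant as Slc25a13 in sh-CACUL1 and 4.71 to 6.46 times in the other samples. 

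In the adenine nucleotide and phosphate group, Slc25a24 stood apart from the 4 others. It encodes a calcium-regulated carrier that exchanges ATP-Mg for phosphate and so alters the matrix adenine nucleotide pool. It lies at chr3:109123149-109168457 on the plus strand. Its level was 6.26 FPKM in FLAG against 15.4 in FLAG-CACUL1 and 32.5 in sh-Luc against 4.71 in sh-CACUL1, so FLAG-CACUL1 and sh-Luc were both above the other 2 samples. The ratio was 2.46 (interval 2.15 to 2.81, log2 change 1.18) in FLAG-CACUL1 and 0.145 (interval 0.126 to 0.165, log2 change −2.55) in sh-CACUL1. FLAG was also lower than sh-Luc, by a log2 change of −2.21, and against sh-Luc the FLAG-CACUL1 level was lower, not higher (−1.03). Within each sample Slc25a24 was 1.73 times its relative Slc25a25 in FLAG against 3.37 in FLAG-CACUL1 and 8.37 in sh-Luc against 0.800 in sh-CACUL1.

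The abundant carriers for ATP synthesis differed less. Slc25a4, the ADP/ATP carrier ANT1, was at 210.9 FPKM in FLAG against 335.6 in FLAG-CACUL1 and 427.4 in sh-Luc against 408.0 in sh-CACUL1. FLAG was the low sample, and the only 2-fold difference was between the controls (log2 change −1.02), which was under 2-fold after median-of-ratios scaling. Slc25a5, the ADP/ATP carrier ANT2, was at 234.0, 243.2, 204.7 and 351.6 FPKM in the same order, with sh-CACUL1 highest (log2 changes 0.06 and 0.78, the second 1.23 after median-of-ratios scaling). Its value is uncertain, since 41.2% of its stretches of 31 bases are shared with the pseudogene Gm5560, 36.3% with Gm5529 and 20.3% with Slc25a5-ps, none of which had a row. Slc25a3, the phosphate carrier, was at 158.5, 212.1, 267.2 and 227.2 FPKM, with log2 changes of 0.42 and −0.23. The ratio of ANT1 to ANT2 mRNA was 0.902 in FLAG against 1.38 in FLAG-CACUL1 and 2.09 in sh-Luc against 1.16 in sh-CACUL1, so ANT1 exceeded ANT2 in all samples but FLAG.

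The 10 carriers of acylcarnitine, cofactors and pyrimidine nucleotides moved in mixed directions. In FLAG-CACUL1 2 were at least 2-fold lower and none higher, and in sh-CACUL1 3 were higher and 1 lower, beside 7.51% higher and 7.22% lower, and 4.94% higher and 16.4% lower, of all genes. Slc25a33, a pyrimidine nucleotide carrier, was at 15.7 FPKM in FLAG against 6.65 in FLAG-CACUL1 and 3.86 in sh-Luc against 12.1 in sh-CACUL1. The ratios were 0.423 (interval 0.353 to 0.505) in FLAG-CACUL1 and 3.14 (interval 2.61 to 3.79) in sh-CACUL1, log2 changes of −1.13 and 1.43, and FLAG was above sh-Luc by 1.78. Gm13068 on the opposite strand overlaps 14.9% of its exons.

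Slc25a36, the other pyrimidine nucleotide carrier, was at 16.2 FPKM in FLAG against 15.3 in FLAG-CACUL1 and 32.4 in sh-Luc against 14.5 in sh-CACUL1. Only sh-Luc stood apart, and the ratio in sh-CACUL1 was 0.449 (interval 0.420 to 0.480, log2 change −1.10, against −0.08 in FLAG-CACUL1). The sh-CACUL1 difference was under 2-fold after quantile normalization (−0.74) and median-of-ratios scaling (−0.67). It shares 13.6% of its stretches of 31 bases with Gm13217. The ratio of Slc25a33 to Slc25a36 was 0.969 in FLAG against 0.434 in FLAG-CACUL1 and 0.119 in sh-Luc against 0.832 in sh-CACUL1, an 8.13-fold range that no single factor per sample can alter.

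Slc25a51, which carries NAD into mitochondria, was at 48.6 FPKM in FLAG against 20.4 in FLAG-CACUL1 and 14.3 in sh-Luc against 21.1 in sh-CACUL1. FLAG alone was high. The ratio was 0.419 (interval 0.392 to 0.447, log2 change −1.22) in FLAG-CACUL1, the log2 change in sh-CACUL1 was 0.53, and FLAG was above sh-Luc by 1.70. Slc25a20, which exchanges carnitine for acylcarnitine and so admits fatty acids for oxidation, was at 7.71, 9.38, 5.64 and 14.2 FPKM in the same order of samples. It was highest in sh-CACUL1, with a ratio of 2.52 to sh-Luc (interval 2.14 to 2.97, log2 change 1.20), and its log2 change in FLAG-CACUL1 was 0.25. The most abundant member of the group by its mean, Slc25a17, is a peroxisomal carrier and was at 26.3, 26.9, 37.4 and 23.8 FPKM in the sample order used for Slc25a20, with log2 changes of 0.03 and −0.63.

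The 7 carriers of amino acids and glutathione, the 2 iron carriers and the 5 other members held no 2-fold difference in either comparison with FPKM + 1 as deposited. In FLAG-CACUL1 Slc25a28 was 2-fold lower after median-of-ratios scaling (−1.07), when centred on the all-gene median and with a pseudocount of 0.1 or none. With a pseudocount of 0.1, Slc25a35 and Slc25a38 were also 2-fold higher and Slc25a2 lower in FLAG-CACUL1, and Slc25a53 was higher in sh-CACUL1. With none Slc25a53 was higher in FLAG-CACUL1 too. Slc25a2 stood on only 8 estimated fragments in FLAG and 2 in FLAG-CACUL1. The measured gene Rangrf on the opposite strand overlaps 31.3% of the exon bases of Slc25a35, and the strand setting is not known. Slc25a39, which carries glutathione, was at 166.5 FPKM in FLAG against 119.6 in FLAG-CACUL1 and 92.7 in sh-Luc against 121.7 in sh-CACUL1 (log2 changes −0.47 and 0.39). FLAG was its highest sample. Slc25a28, the iron carrier mitoferrin 2, was at 14.6, 7.20, 8.24 and 9.92 FPKM in the same order, with FLAG again the highest (log2 changes −0.93 and 0.24). Its ratio to Slc25a37, mitoferrin 1, was 1.46 in FLAG against 0.484 in FLAG-CACUL1 and 0.869 in sh-Luc against 1.99 in sh-CACUL1, so mitoferrin 1 was the more abundant in FLAG-CACUL1 and sh-Luc. Slc25a38, which carries glycine for haem synthesis, is named because it was just short of 2-fold higher in FLAG-CACUL1 (0.98). The ratio of Slc25a39 to its relative Slc25a40 was 32.4, 19.6, 19.0 and 45.7 in the same order, and Slc25a40 shares 13.9% of its stretches of 31 bases with Gm5066. Slc25a46, an outer membrane protein of mitochondrial dynamics and not a known transporter, was at 8.76, 11.2, 9.84 and 12.7 FPKM (0.32 and 0.33).

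Of the 3 members that resemble uncoupling proteins, Slc25a30 differed by 2-fold in sh-CACUL1. It was at 8.32 FPKM in FLAG against 8.14 in FLAG-CACUL1 and 9.40 in sh-Luc against 2.98 in sh-CACUL1, the single low sample. The ratio in sh-CACUL1 was 0.317 (interval 0.266 to 0.376, log2 change −1.39, or −0.92 after quantile normalization), and the log2 change in FLAG-CACUL1 was −0.03.

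**Figure D3:**
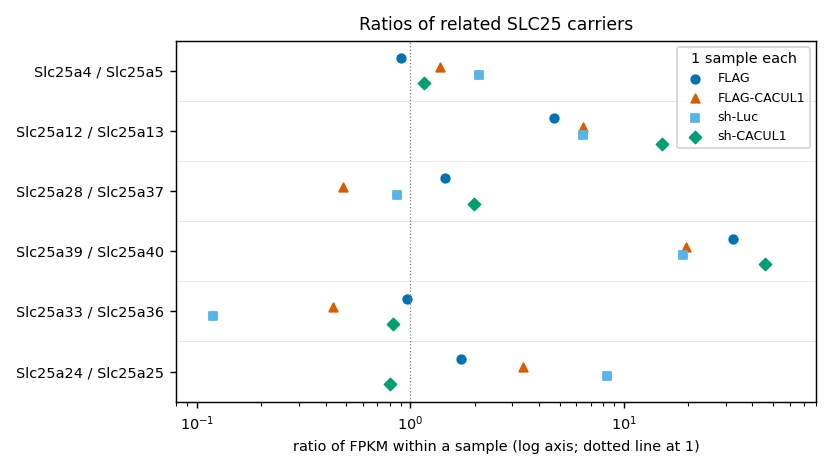
Ratio of FPKM between related SLC25 carriers within each of the 4 samples, on a log axis with 1 point per sample. The ratio of Slc25a24 to Slc25a25 runs from 0.800 in sh-CACUL1 to 8.37 in sh-Luc, and that of Slc25a33 to Slc25a36 from 0.119 in sh-Luc to 0.969 in FLAG.

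These 6 ratios of related carriers were chosen after their values were seen, and each stays the same under a single scaling factor per sample, though not under quantile normalization. In FLAG-CACUL1 and sh-CACUL1 against their own controls the ratios of Slc25a28 to Slc25a37, of Slc25a33 to Slc25a36 and of Slc25a39 to Slc25a40 were lower and then higher. Those of Slc25a4 to Slc25a5 and of Slc25a24 to Slc25a25 were higher and then lower, and that of Slc25a12 to Slc25a13 was higher in both.

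The controls themselves differed by at least 2-fold in 6 of 38 members (15.8%), against 21.0% of all genes. Slc25a1, Slc25a33 and Slc25a51 were higher in FLAG than in sh-Luc, and Slc25a4, Slc25a24 and Slc25a38 were lower, against 8.58% and 12.4% of all genes. Against the other vector's control, FLAG-CACUL1 differed by 2-fold in 3 members (9.90% of all genes) and sh-CACUL1 in 7 (22.9% of all genes). Vector, drug selection and line cannot be told apart in this difference. FLAG and sh-CACUL1 were both above FLAG-CACUL1 and sh-Luc in 7 members (18.4%), against 9.93% of all genes, namely Slc25a1, Slc25a10, Slc25a22, Slc25a28, Slc25a33, Slc25a39 and Slc25a51. They were both below in 6 members (15.8%), against 31.5% of all genes, namely Slc25a12, Slc25a14, Slc25a17, Slc25a24, Slc25a26 and Slc25a32. After median-of-ratios scaling the first count was 12 (against 18.3% of all genes), and Slc25a24 alone was left of the second (against 18.6%).

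**Figure D4:**
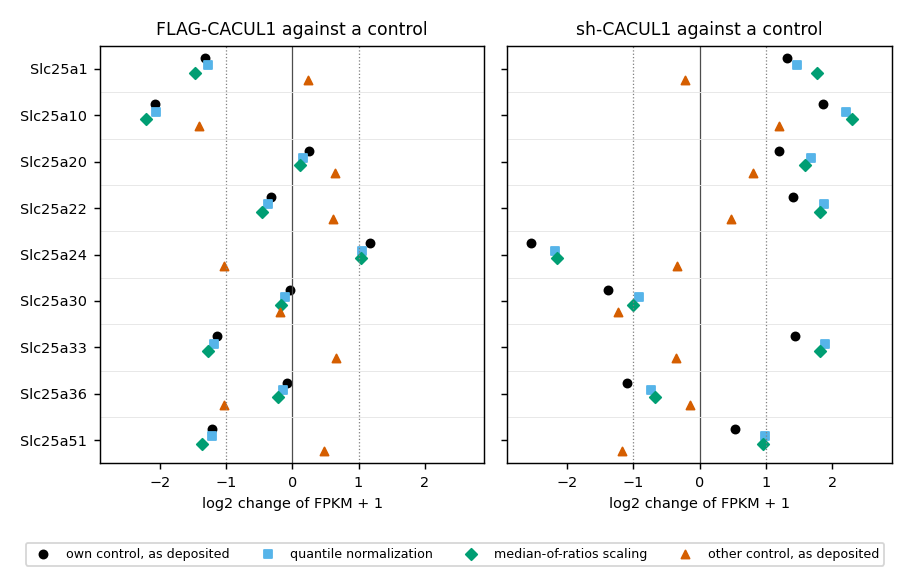
Log2 change of 9 of the 10 members that differed by 2-fold in either comparison, with FLAG-CACUL1 on the left and sh-CACUL1 on the right, as deposited, after 2 rescalings and against the other vector's control (dotted lines at 2-fold, 1 sample per group). The rescaled values keep their side of 0, while against the other control those of Slc25a1, Slc25a33 and Slc25a51 cross it in both panels.

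Enzymes and other proteins that work with the carriers, and 5 family members with other symbols, were counted from a list of 42 genes. Of these 41 had a row, among them the family members Ucp2, Ucp3, Mtch1 and Mtch2. Of the 41 genes, 3 were at least 2-fold higher and 5 lower in FLAG-CACUL1, beside 7.51% higher and 7.22% lower of all genes. In sh-CACUL1 8 were higher and 3 lower, beside 4.94% higher and 16.4% lower of all genes. Mtch1 was among the 3 higher in FLAG-CACUL1 (log2 change 1.20). In both comparisons 4 of the 41 were lower and then higher, against 1.69% of all genes, and 1 was higher and then lower, against 3.02%. Pcx, the pyruvate carboxylase that refills the citrate cycle, was at 216.0 FPKM in FLAG against 29.8 in FLAG-CACUL1 and 84.3 in sh-Luc against 349.5 in sh-CACUL1 (log2 changes −2.82 and 2.04). Mdh1, the cytosolic malate dehydrogenase, was at 112.3, 50.5, 110.5 and 321.2 FPKM in that order (−1.14 and 1.53). Both were lowest in FLAG-CACUL1 and highest in sh-CACUL1, as Slc25a10 was.

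The carnitine shuttle held the other 3 genes that differed in both comparisons. Cpt2, the inner membrane carnitine palmitoyltransferase, was at 45.3 FPKM in FLAG against 18.3 in FLAG-CACUL1 and 16.5 in sh-Luc against 49.5 in sh-CACUL1 (−1.26 and 1.53). Crat, carnitine acetyltransferase, was at 34.9, 16.6, 20.5 and 97.7 FPKM (−1.03 and 2.20). Cpt1a, the outer membrane enzyme that makes acylcarnitine, ran the other way, at 6.02, 22.8, 21.7 and 6.69 FPKM (1.76 and −1.56), and Slc25a20 between these enzymes differed by 2-fold only in sh-CACUL1. The 12 genes of the import machinery for carriers, such as the inner membrane translocase Timm22, held 1 higher in FLAG-CACUL1 and 1 higher in sh-CACUL1. None was lower. Of all genes, 7.51% were higher and 7.22% lower in FLAG-CACUL1, and 4.94% higher and 16.4% lower in sh-CACUL1.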

How the data were processed

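The authors deposited FPKM values for 13110 rows of RefSeq transcripts in each of 4 mRNA-seq samples, 1 per line, made by a company. The submitters' processing notes name mm10. The aligner, the quantifier, the strand setting and any scaling between samples are not given in the sources used here, and no counts were used. Rows were joined to symbols by GENCODE M21 (196 had none and 8 had more than 1) and summed per symbol. Members and gene lists were chosen with earlier results of these data known. Values in all samples are given for members at 2-fold in either comparison, the 5 highest by mean FPKM and the highest of each of 7 role groups, and for listed partners at 2-fold in both comparisons. Others are named as exceptions. The values of 1 member are not reported here.

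Depth was estimated from the FPKM steps of 4241 single-transcript rows of at least 3000 bases. For 30 of 38 members with 1 transcript fragments follow from its full length, so intervals are approximate. On 2 kb, 3 fragments are 0.0624 to 0.105 FPKM. No test was run. The 10 alternative settings, and 1 more chosen after seeing the data (centring on the median of all genes) are given at the end. The scripts were tested on simulated data. Python 3.11.15, numpy 2.4.6, pandas 2.3.3, scipy 1.17.1 and matplotlib 3.10.9 were used.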

Additional observations from a re-analysis of the deposited data

How the results depend on the processing

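With 1 sample per group no spread between cultures is known, leaving out a replicate was not possible, and the cause of each shift below was not tested. No paired analysis was possible because each group holds 1 sample. Of the 14 differences of 2-fold or more in named members, 14 stayed past 2-fold with either other pseudocount and with the highest row per symbol, 12 with quantile normalization, 13 with median-of-ratios scaling, 13 when centred on the all-gene median, and 5 against the other vector's control, where 6 turned direction. Against that control the FLAG-CACUL1 change was 0.23 for Slc25a1, −1.03 for Slc25a24, 0.66 for Slc25a33 and 0.48 for Slc25a51, and the sh-CACUL1 change was −0.22 for Slc25a1 and −0.35 for Slc25a33. The count of members at 2-fold in FLAG-CACUL1 was 9 with a pseudocount of 0.1, 11 with none, 3 with the other control, 12 at 1.5-fold and 1 at 3-fold. In sh-CACUL1 it was 16 at 1.5-fold and 2 at 3-fold. Between the controls it was 10 with no pseudocount, 17 at 1.5-fold and 3 at 3-fold. The count lower in FLAG-CACUL1 and higher in sh-CACUL1 was 1 with the other control and 1 at 3-fold, and the reverse count was 0 under both. The members' median log2 change in FLAG-CACUL1 was 0.067 with median-of-ratios scaling and 0.042 with the other control. In sh-CACUL1 it was −0.064 for genes with at least 1 FPKM in any sample, −0.066 for those with 1 in all, 0.28 with quantile normalization, 0.38 with median-of-ratios scaling, 0.13 with the other control and 0.33 when centred. The estimated depth limits only the lowest members, since the members chosen by rule for values in all samples stood on at least 158 estimated fragments where these could be computed. Of the members named as exceptions, Slc25a38 stood on 73 in FLAG, Slc25a35 on 32 and Slc25a27 on 15. Slc25a2 stood on 8 in FLAG and 2 in FLAG-CACUL1, and the interval of its ratio was 0.026 to 1.27. Fragments could not be computed for Slc25a13 and Slc25a53.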
